A study of Homo sapiens with 18 samples.

Results

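EGFR signaling genes were followed in MDA-MB-231 cells, an established human triple-negative breast cancer (TNBC) line, as the rows of 9 listed symbols in the count files: the receptors EGFR, ERBB2 and ERBB3, the ligands AREG, EREG, HBEGF, TGFA and NRG1, and the feedback inhibitor ERRFI1. They are 9 of 60642 symbols, and all 9 passed the filter on low counts that left 15298 genes for testing. The study asked how the arginine methyltransferase PRMT5 and the chromatin protein HP1γ, encoded by CBX3, take part in the response to glucocorticoids. Cells received a non-specific siRNA (siNS), siRNA pools against HP1γ (siHP1γ) or siRNA pools against PRMT5 (siPRMT5), and then either 100 nM dexamethasone (Dex), a synthetic glucocorticoid, or its ethanol vehicle (Eth) for 8 h. These 6 conditions had 3 replicates each, which gave 18 RNA-seq libraries of a single cell line, all transfected.

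Receptors of the EGF family are tyrosine kinases that pair up when a ligand binds, and they pass the signal to the RAS-ERK and PI3K chains. The ligands are made as membrane-anchored precursors and are released by metalloproteases, after which they can act on the cell that made them. EGFR is abundant in many TNBC, and ERRFI1 (also called MIG6) is a cytosolic protein that binds the EGFR kinase and blocks it.

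Between 8682992 and 12472381 reads were counted per library, and replicates differed beyond counting noise (chi-square of 2.07 to 12 per degree of freedom between 2 replicates), so none was merged. Values are CPM (counts per 1000000 reads on genes, scaled by edgeR's TMM factors). The siRNA targets were low where they should be: fitted PRMT5 mRNA in siPRMT5 cells was 2.96% of siNS cells with Eth and 4.41% with Dex, and CBX3 mRNA in siHP1γ cells was 3.89% and 6%. PRMT5 mRNA was also lower in siHP1γ than in siNS cells, at 83.9% with Eth (adjusted p = 0.0111) and 78.7% with Dex (adjusted p = 0.00123). Of the markers of the line, VIM (5444 to 9592 CPM), CD44 (506 to 857 CPM) and SPARC (5.81 to 10.7 CPM) were present in every library, and ESR1, PGR and CDH1 had at most 2 counts in a library. GATA3, a luminal gene listed as low, had 24 to 89 counts. Of the markers of other cells, PTPRC (blood) had at most 2 counts, EPCAM (epithelium) was at 8.57 to 14.0 CPM, and PECAM1 (endothelium) was at 1.10 to 8.15 CPM and rose with Dex in siNS cells from 1.29 to 4.14 CPM (log2 fold change 1.67, adjusted p = 1.59e-05). PECAM1 also rose with Dex in siPRMT5 cells (1.06, adjusted p = 0.000116), after PRMT5 depletion (1.31 without and 0.71 with Dex, adjusted p = 0.00018 and 0.00166) and after HP1γ depletion without Dex (1.03, adjusted p = 0.00372). EPCAM was higher after HP1γ depletion with Dex (0.47, adjusted p = 0.00482). GATA3 was higher after HP1γ depletion without Dex (0.47, adjusted p = 0.0386) and lower after PRMT5 depletion without Dex (-0.70, adjusted p = 0.0073). Of the markers of the line, VIM was lower after HP1γ depletion (-0.29 without and -0.28 with Dex), SPARC was higher after HP1γ depletion (0.47 and 0.39) and after PRMT5 depletion without Dex (0.54), and CD44 was lower without Dex after depletion of HP1γ (-0.20) and of PRMT5 (-0.18). In siNS cells, CD44 also fell with Dex, from 809 to 557 CPM (-0.54, adjusted p = 3.23e-07), which is under the 1.5-fold limit used below. VIM fell there by less (-0.25, adjusted p = 0.0106). The part of these markers in the results was not tested.

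Levels of different genes can be compared only per transcript length, here as CPM per kb of the MANE Select transcript, which assumes reads along the whole transcript. Averaged over the 18 libraries, ERRFI1 had the highest level of the 9 genes, at 252 CPM per kb, and HBEGF was the most abundant ligand, at 73.1 CPM per kb. EGFR followed at 20.6 CPM per kb and AREG at 9.73 CPM per kb. ERBB2, NRG1 and EREG lay between 6.64 and 4.53 CPM per kb. TGFA was at 1.57 CPM per kb and ERBB3 at 0.563 CPM per kb, with 18 to 60 counts in a library. CPM are shares of a bulk library, so a lower level in each cell and fewer cells with the mRNA cannot be told apart. EGF itself, BTC, ERBB4, NRG3 and NRG4 had at most 8 counts in any library and were not tested.

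Dex lowered HBEGF mRNA in all 3 kinds of cells, and PRMT5 depletion lowered EGFR mRNA both without and with Dex. AREG and ERRFI1 rose with Dex past the threshold in siPRMT5 cells, and for both the response was larger there than in siNS cells. A Dex response was called at an adjusted p under 0.01 with a 1.5-fold change or more, and the other comparisons at an adjusted p under 0.05, in 1 edgeR quasi-likelihood fit of the 18 libraries. In siNS cells, Dex changed 1 of the 9 genes (HBEGF, lower), while 2.71% of all genes tested were called. In siHP1γ cells it lowered 2 (HBEGF and TGFA), against 1.67% of all genes. In siPRMT5 cells it raised 2 (AREG and ERRFI1) and lowered 3 (ERBB3, HBEGF and TGFA), against 5.44% of all genes.

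Depletion of PRMT5 changed 5 of the 9 genes without Dex, where 42.1% of all genes were called, and 5 with Dex, where 42.4% were called. The share of the 9 genes called, 55.6% in both, lies near the background. Depletion of HP1γ changed 2 genes without Dex (ERBB2 and HBEGF, both higher, background 31.8%) and 2 with Dex (HBEGF higher, EGFR lower, background 24%). The share of the 9 genes called, 22.2% in both, is not above these backgrounds. With library size alone in place of TMM, the counts after HP1γ depletion were 4 genes without Dex (AREG and NRG1 also higher) and 4 with Dex (ERBB3 and ERRFI1 also higher). The change that a depletion made to the Dex response, tested as an interaction, was called for 1 gene with HP1γ depletion (HBEGF, background 0.399%) and for 2 with PRMT5 depletion (AREG and ERRFI1, background 3.8%). The comparisons share libraries, since siNS Eth and siNS Dex serve as controls in several of them, so calls in different comparisons are not independent. For single genes, groups whose libraries did not overlap gave p = 0.1 in an exact two-sided permutation test, the smallest that 3 against 3 can reach.

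**Figure D1:**
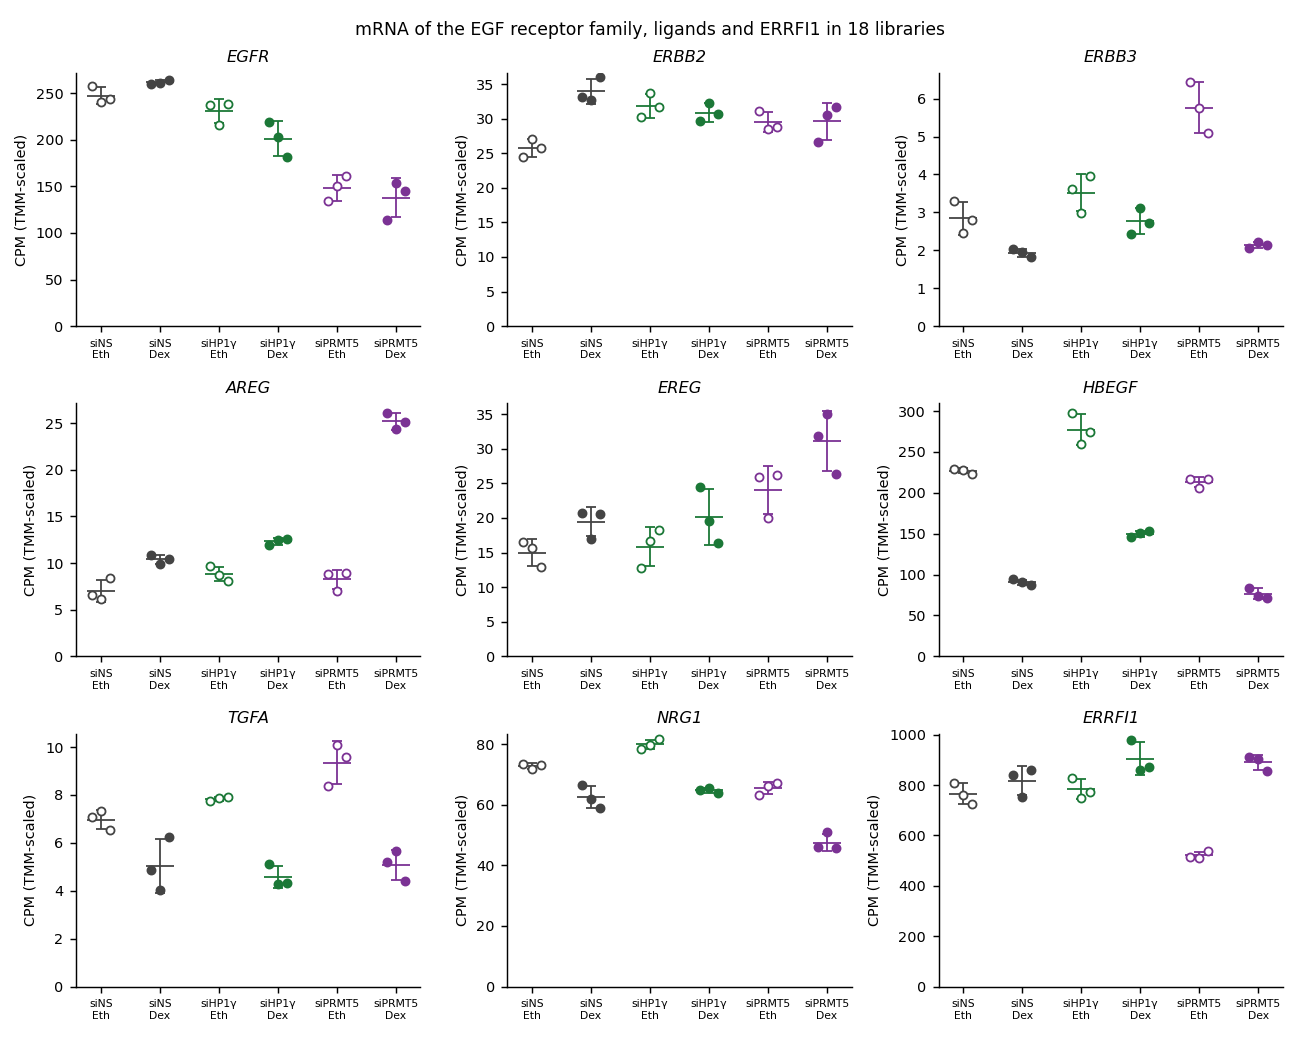
CPM (TMM-scaled, linear axis from 0) of the 9 genes in the 18 libraries, with open points for Eth and filled points for Dex; the bar and whiskers are the mean ± SD of 3 replicates. HBEGF drops with Dex in each kind of cell, EGFR is lowest in siPRMT5 cells, and the AREG libraries of siPRMT5 Dex (24.3 to 26.1 CPM) lie above all others.

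EGFR, the receptor of EGF, AREG, EREG, HBEGF and TGFA, is encoded on chromosome 7 (hg38, 55019017 to 55211628, plus strand). The promoter at the annotated start of the gene, 250 bases before to 50 after it, is shown since EGFR is the receptor whose mRNA fell after both depletions with Dex. It is chr7:55018767-55019066, plus strand, GRCh38.p14, from RefSeq, and holds 3 GC boxes (GGGCGG on either strand, in capitals), 204 and 36 bases before the start and at base 44 of the gene.
EGFR: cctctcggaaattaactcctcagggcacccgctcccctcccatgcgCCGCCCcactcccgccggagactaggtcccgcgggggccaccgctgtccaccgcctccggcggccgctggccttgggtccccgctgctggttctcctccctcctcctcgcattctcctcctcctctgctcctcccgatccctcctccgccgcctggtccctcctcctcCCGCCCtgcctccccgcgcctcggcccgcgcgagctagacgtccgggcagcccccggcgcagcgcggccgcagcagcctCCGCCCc
The sequence is 75.3% G and C, against a median of 58.7% over 35116 promoters, of which 45% hold a GC box.

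In siNS cells, EGFR was at 257, 241 and 244 CPM with Eth and at 260.2, 261 and 264 CPM with Dex. The Dex libraries were all above the Eth libraries by a small margin, and the log2 fold change of 0.08 did not pass (95% confidence interval -0.10 to 0.26, adjusted p = 0.641). In siPRMT5 cells, EGFR was at 134, 150.2 and 161 CPM with Eth and at 114, 154 and 145 CPM with Dex. All 6 siPRMT5 libraries were below all 12 others. PRMT5 depletion left 60.1% of siNS without Dex (log2 fold change -0.74, SE 0.0903, adjusted p = 3.12e-07) and 52.7% with Dex (-0.93, SE 0.0902, adjusted p = 6.69e-09).

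After depletion of HP1γ, the change of EGFR with Dex passed and that without Dex did not. EGFR was at 237, 215 and 238 CPM in siHP1γ Eth, and at 219, 203 and 181 CPM in siHP1γ Dex. The Dex libraries were all below siNS Dex, with a log2 fold change of -0.38 (SE 0.0887, adjusted p = 0.00249), whereas the change without Dex was -0.10 (adjusted p = 0.416). Whether the effect of HP1γ depletion differed with and without Dex is the same interaction as the change of the Dex response, which was -0.28 on the log2 scale (95% confidence interval -0.54 to -0.02) and did not pass (adjusted p = 0.253). In order of mean, the conditions ran from siNS Dex (262 CPM), siNS Eth (247 CPM), siHP1γ Eth (230.4 CPM) and siHP1γ Dex (201 CPM) to siPRMT5 Eth (148 CPM) and siPRMT5 Dex (138 CPM), and the libraries of neighbours overlapped between the siHP1γ conditions and between the siPRMT5 conditions. An antisense gene, EGFR-AS1, shares 186 exon bases with EGFR, and its mean count was 0.06.

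ERBB2, also called HER2, has no known ligand and acts as a partner of the other receptors. It lies on chromosome 17 from 39687914 to 39730426, plus strand. It was at 24.5, 27.0 and 25.8 CPM in siNS Eth and at 33.1, 32.7 and 36.0 CPM in siNS Dex. The Dex libraries were all higher, at 1.32-fold (log2 fold change 0.40, SE 0.0883, adjusted p = 0.0034), which is under the fold change limit. In siHP1γ cells the log2 fold change with Dex was -0.05 (adjusted p = 0.839) and in siPRMT5 cells 0.005 (adjusted p = 0.98).

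Without Dex, ERBB2 was higher in siHP1γ (30.2, 33.7 and 31.7 CPM) than in siNS cells, with a log2 fold change of 0.31 (SE 0.0888, adjusted p = 0.0098). This call was lost without siNS Eth replicate 1 (adjusted p = 0.057) and without siHP1γ Eth replicate 2 (adjusted p = 0.0535). The siNS Eth mean was the lowest of the 6 conditions, and its libraries overlapped siPRMT5 Dex but not siPRMT5 Eth, the condition next in order. The ranges of the other 5 conditions overlapped from each neighbour to the next. The interaction was -0.45 with HP1γ depletion (adjusted p = 0.0939) and -0.39 with PRMT5 depletion (adjusted p = 0.0761), and the first passed with DESeq2 (adjusted p = 0.046). ERBB2 shares 571 exon bases with MIEN1 and 144 with PGAP3, both on the other strand. Their mean counts were 255 and 18.3, and the strand setting of the counting is not given in the sources used here, so part of the ERBB2 count is uncertain.

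ERBB3 binds neuregulins such as NRG1 but has little kinase activity of its own. It lies on chromosome 12 from 56076799 to 56103505, plus strand. With Eth it was at 3.31, 2.45 and 2.80 CPM in siNS cells and at 6.44, 5.75 and 5.10 CPM in siPRMT5 cells. The siPRMT5 Eth libraries were above those of all other conditions, 2.02-fold over siNS Eth (log2 fold change 1.01, SE 0.184, adjusted p = 7.36e-05). With Dex it was at 2.03, 1.96 and 1.81 CPM in siNS cells and at 2.05, 2.22 and 2.15 CPM in siPRMT5 cells. The fall in siPRMT5 cells, to 37.4%, passed (log2 fold change -1.42, SE 0.191, adjusted p = 3.17e-06), while the fall in siNS cells to 68.2% did not (adjusted p = 0.142). The difference of these responses, -0.87 on the log2 scale (95% confidence interval -1.48 to -0.26), did not pass either (adjusted p = 0.0987). With 18 to 60 counts per library, ERBB3 had the largest SEs of the 9 genes, from 0.184 to 0.296. It shares 31 exon bases with a coding gene not listed in the files.

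**Figure D2:**
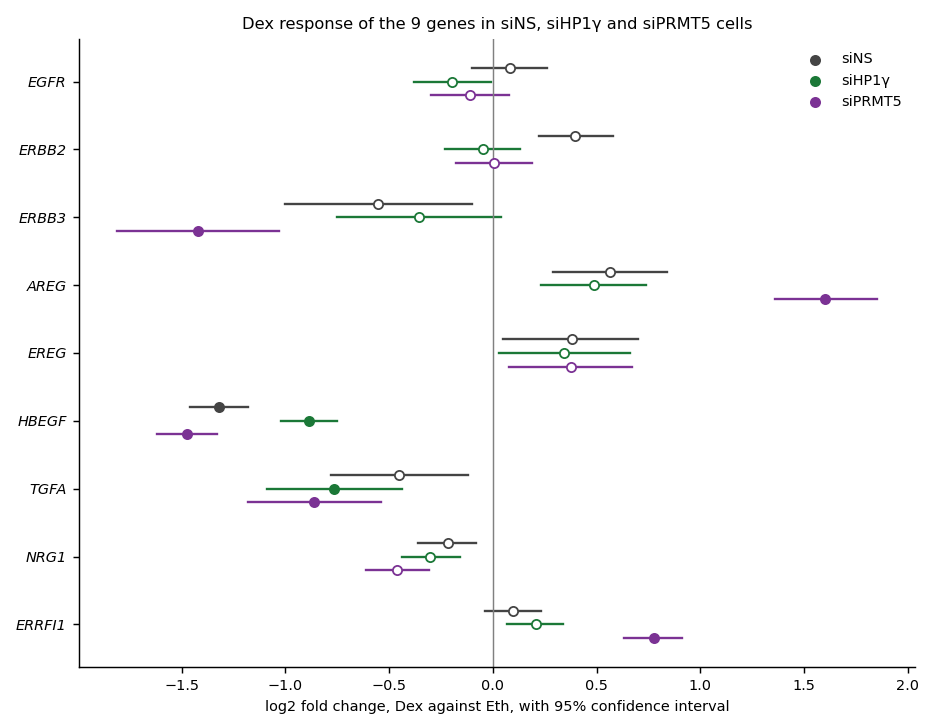
Log2 fold change of Dex against Eth (x axis) with its 95% confidence interval for the 9 genes in siNS, siHP1γ and siPRMT5 cells; filled points passed an adjusted p under 0.01 with a 1.5-fold change or more. HBEGF is the gene with filled points in all 3 kinds of cells, and AREG and ERRFI1 stand farther right in siPRMT5 cells, at 1.60 and 0.77.

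The promoters of the ligands HBEGF, AREG and EREG are shown because HBEGF had the largest Dex response of the 9 genes in siNS cells, and because AREG and EREG are neighbours on chromosome 4, of which AREG passed for Dex in siPRMT5 cells and EREG did not. They span 250 bases before to 50 after the gene's start in RefSeq on GRCh38.p14: chr5:140346554-140346853 (minus strand) for HBEGF, chr4:74444886-74445185 (plus strand) for AREG and chr4:74364895-74365194 (plus strand) for EREG. For these windows, 6 motifs were searched on both strands, and matches are in capitals.
HBEGF: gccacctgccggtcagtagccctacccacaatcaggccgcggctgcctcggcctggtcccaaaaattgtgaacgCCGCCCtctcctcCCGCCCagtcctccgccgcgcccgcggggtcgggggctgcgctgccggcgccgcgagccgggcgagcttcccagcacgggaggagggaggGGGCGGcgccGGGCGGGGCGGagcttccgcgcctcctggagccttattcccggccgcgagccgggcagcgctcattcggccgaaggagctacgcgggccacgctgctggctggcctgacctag
AREG: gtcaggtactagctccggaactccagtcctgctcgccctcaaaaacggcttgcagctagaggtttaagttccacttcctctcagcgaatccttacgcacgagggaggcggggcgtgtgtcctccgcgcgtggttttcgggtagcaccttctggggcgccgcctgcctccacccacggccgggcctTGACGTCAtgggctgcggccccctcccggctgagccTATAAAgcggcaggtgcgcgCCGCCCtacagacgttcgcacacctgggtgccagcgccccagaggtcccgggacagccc
EREG: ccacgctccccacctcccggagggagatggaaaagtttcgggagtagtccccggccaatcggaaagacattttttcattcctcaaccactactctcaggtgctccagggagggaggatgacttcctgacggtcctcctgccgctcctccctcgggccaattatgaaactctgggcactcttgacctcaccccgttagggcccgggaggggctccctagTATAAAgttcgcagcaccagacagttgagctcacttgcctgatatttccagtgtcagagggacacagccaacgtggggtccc
AREG holds a CRE (TGACGTCA, the cyclic AMP response element) 65 bases before the start, a motif in 1.85% of all promoters, and a TATA box (TATAAA) 29 bases before it. EREG holds a TATA box 32 bases before its start, and 11.5% of promoters hold one on either strand. HBEGF holds 5 GC boxes, of which 2 overlap by 1 base, and AREG holds 1. The other motifs searched were the glucocorticoid response element (AGNACA, any 3 bases, TGTNCT, in 0.0655% of promoters), its half-site (AGAACA, in 14.8%) and the AP-1 site (TGANTCA, in 7.71%). These letters are not in the 4 windows printed. Among the other entries of the 9 genes, a second EGFR promoter (chr7:55109589-55109888) holds 2 AP-1 sites and a half-site, that of ERBB2 holds 1 of each, and 1 of the 2 entries of TGFA holds a half-site. Entries existed for 7 of the 9 genes, and ERBB3 and NRG1 had none. A match is a description of the sequence, and binding was not measured here.

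HBEGF encodes heparin-binding EGF-like growth factor, which binds EGFR and ERBB4, and lies on chromosome 5 from 140332843 to 140346603, minus strand, with no overlapping gene. It was at 229, 228 and 223 CPM in siNS Eth and at 94.2, 90.4 and 87.8 CPM in siNS Dex. Dex left 40% (log2 fold change -1.32, SE 0.0693, adjusted p = 1.28e-13). In siPRMT5 cells it fell from 216, 206 and 217 CPM to 84.1, 73.9 and 72.0 CPM, which left 36% (-1.47, SE 0.0701, adjusted p = 1.03e-14). In siHP1γ cells it fell from 298, 259.7 and 274 CPM to 146, 150.5 and 153 CPM, which left 54.1% (-0.89, SE 0.0672, adjusted p = 4.87e-10).

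No 2 conditions overlapped in HBEGF, and their order was siHP1γ Eth, siNS Eth, siPRMT5 Eth, siHP1γ Dex, siNS Dex and siPRMT5 Dex. HP1γ depletion raised HBEGF 1.22-fold without Dex (log2 fold change 0.29, SE 0.0664, adjusted p = 0.00151) and 1.65-fold with Dex (0.73, SE 0.0692, adjusted p = 1.92e-08). PRMT5 depletion lowered it with Dex to 84.4% (-0.24, SE 0.0709, adjusted p = 0.00696), and the difference without Dex, at 93.9%, did not pass (adjusted p = 0.293). The Dex response in siHP1γ cells was weaker than in siNS cells by 0.44 on the log2 scale (SE 0.0958, adjusted p = 0.0398), in 3 of 3 same-numbered sets of replicates. That call was lost in 9 of the 18 fits that each left out 1 library, with adjusted p from 0.0532 to 0.13 and differences from 0.39 to 0.47.

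AREG encodes amphiregulin, an EGFR ligand, and lies on chromosome 4 from 74445136 to 74455005, plus strand. In siPRMT5 cells it was at 8.80, 7.04 and 8.90 CPM with Eth and at 26.1, 24.3 and 25.1 CPM with Dex. The siPRMT5 Dex libraries were above all others, and Dex raised AREG 3.04-fold (log2 fold change 1.60, SE 0.118, adjusted p = 7.04e-11). In siNS cells it was at 6.62, 6.12 and 8.39 CPM with Eth and at 10.9, 9.91 and 10.4 CPM with Dex. These groups did not overlap, and the 1.48-fold difference (0.56, SE 0.134, adjusted p = 0.00614) missed the fold change limit. Without siNS Eth replicate 3, the highest of the Eth libraries, it passed at 0.71 (adjusted p = 0.00223).

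The AREG response was larger in siPRMT5 than in siNS cells by 1.04 on the log2 scale (SE 0.181, adjusted p = 0.00144), in 3 of 3 same-numbered sets of replicates. With any 1 library left out, this difference stayed between 0.90 and 1.14. With Dex, AREG was 2.41-fold higher in siPRMT5 than in siNS cells (log2 fold change 1.27, SE 0.112, adjusted p = 1.1e-09), and without Dex the 1.18-fold difference did not pass (adjusted p = 0.196). In siHP1γ cells AREG was at 9.65, 8.70 and 8.11 CPM with Eth and at 11.9, 12.5 and 12.6 CPM with Dex, a log2 fold change of 0.49 (adjusted p = 0.0155), and its response differed from that in siNS cells by -0.08 (95% confidence interval -0.45 to 0.30, adjusted p = 0.867).

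EREG encodes epiregulin, a ligand of EGFR and ERBB4, and lies on chromosome 4 from 74365145 to 74388749, plus strand, next to AREG. It was at 16.5, 15.7 and 12.8 CPM in siNS Eth and at 25.9, 19.96 and 26.2 CPM in siPRMT5 Eth. The groups did not overlap, with a log2 fold change of 0.68 (SE 0.156, adjusted p = 0.000884). With Dex it was at 20.7, 17.0 and 20.6 CPM in siNS cells and at 31.9, 34.9 and 26.4 CPM in siPRMT5 cells, also a log2 fold change of 0.68 (SE 0.144, adjusted p = 0.000421). The Dex responses of EREG were 0.38, 0.34 and 0.37 in siNS, siHP1γ and siPRMT5 cells, and did not pass (adjusted p = 0.145, 0.227 and 0.0777). The interaction with PRMT5 depletion was -0.005 (95% confidence interval -0.43 to 0.42). In siHP1γ cells EREG ranged from 12.7 to 18.2 CPM with Eth and from 16.4 to 24.4 CPM with Dex, overlapping siNS cells in both.

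TGFA encodes transforming growth factor α, an EGFR ligand, and lies on chromosome 2 from 70447284 to 70554193, minus strand, with TGFA-IT1 inside it. It was at 7.07, 7.34 and 6.53 CPM in siNS Eth and at 4.86, 4.03 and 6.26 CPM in siNS Dex. The fall to 73% did not pass (log2 fold change -0.45, adjusted p = 0.079). In siPRMT5 cells it fell from 8.37, 10.1 and 9.60 CPM to 5.18, 5.67 and 4.41 CPM (-0.86, SE 0.154, adjusted p = 0.000167). In siHP1γ cells it fell from 7.74, 7.86 and 7.93 CPM to 5.12, 4.30 and 4.33 CPM (-0.77, SE 0.157, adjusted p = 0.00221), a call lost without replicate 2 or 3 of siHP1γ Eth or of siHP1γ Dex, with adjusted p from 0.0102 to 0.0157. Dex and Eth libraries did not overlap in any of the 3 kinds of cells. The interactions, -0.31 with HP1γ and -0.41 with PRMT5 depletion, did not pass (adjusted p = 0.503 and 0.327). Without Dex, TGFA was 1.34-fold higher in siPRMT5 than in siNS cells (adjusted p = 0.0247), and this was lost without siNS Eth replicate 1 or 3, without siPRMT5 Eth replicate 2 or 3 (adjusted p from 0.0522 to 0.091) and with no filter on low counts (0.0598).

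NRG1 encodes neuregulin 1, a ligand of ERBB3 and ERBB4, and lies on chromosome 8 from 31639222 to 32855666, plus strand. It was at 73.5, 71.9 and 73.1 CPM in siNS Eth and at 66.5, 62.1 and 59.1 CPM in siNS Dex. In siHP1γ cells it went from 78.6, 79.7 and 81.7 CPM to 65.0, 65.5 and 63.8 CPM, and in siPRMT5 cells from 63.2, 66.3 and 67.2 CPM to 46.0, 51.0 and 45.7 CPM. The Dex libraries were below the Eth libraries in each kind of cell, but the differences were under the fold change limit of 1.5, with log2 fold changes of -0.22, -0.30 and -0.46 (adjusted p = 0.0473, 0.00563 and 2.51e-05). With Dex, NRG1 was lower in siPRMT5 than in siNS cells (log2 fold change -0.39, SE 0.0709, adjusted p = 6.83e-05), and siPRMT5 Dex was the lowest of the 6 conditions. Without Dex the difference was -0.15 (adjusted p = 0.0844). In the annotation, 1 coding gene not listed in the files shares 189 exon bases with NRG1.

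**Figure D3:**
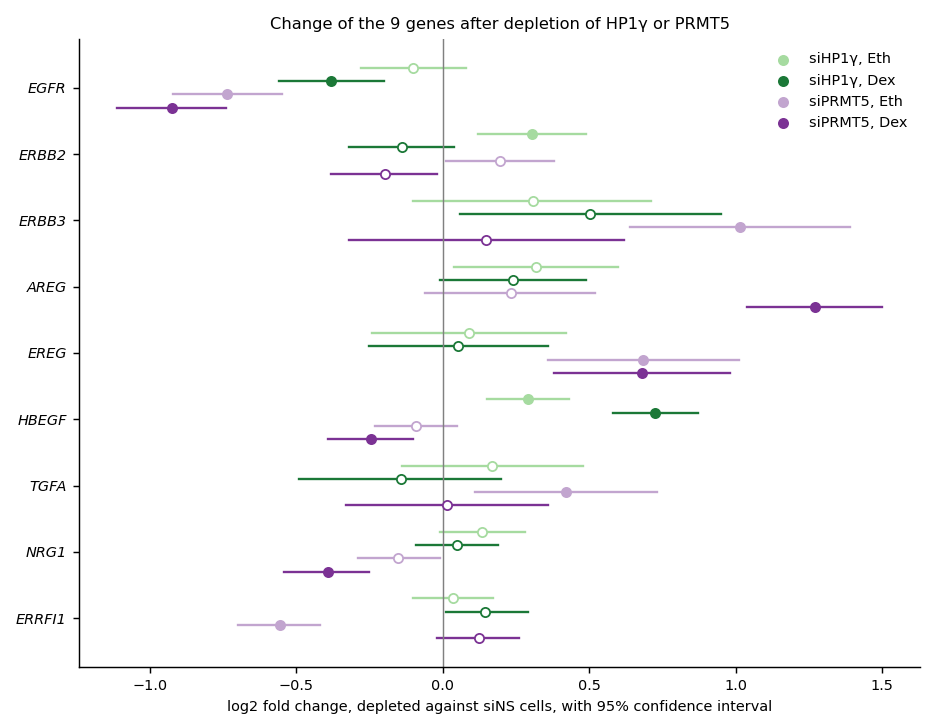
Log2 fold change of depleted against siNS cells (x axis) with its 95% confidence interval for the 9 genes, without Dex (Eth, light) and with Dex (dark); filled points passed an adjusted p under 0.05. EGFR lies left of 0 after PRMT5 depletion in both, EREG lies right in both, and AREG is filled with Dex, at 1.27.

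ERRFI1 lies on chromosome 1 from 8004404 to 8026309, minus strand. It was at 809.5, 762 and 725 CPM in siNS Eth and at 841, 751 and 859 CPM in siNS Dex, which overlapped (log2 fold change 0.10, adjusted p = 0.445). In siPRMT5 cells it was at 514, 510.2 and 537.5 CPM with Eth and at 912, 902 and 857 CPM with Dex. The siPRMT5 Eth libraries were the lowest of all 18, at 68% of siNS Eth (-0.56, SE 0.0681, adjusted p = 3.01e-07), and with Dex the difference to siNS was 0.12 (adjusted p = 0.145). Dex raised ERRFI1 1.71-fold in siPRMT5 cells (log2 fold change 0.77, SE 0.0682, adjusted p = 2.2e-09), and this response was larger than in siNS cells by 0.68 (SE 0.0959, adjusted p = 0.000144), in 3 of 3 same-numbered sets of replicates. In siHP1γ cells ERRFI1 was at 829, 749.8 and 774 CPM with Eth and at 980.2, 861 and 872 CPM with Dex (0.21, adjusted p = 0.078). Against siNS cells, AREG was thus higher in siPRMT5 cells with Dex, and ERRFI1 was lower in siPRMT5 cells without Dex. An antisense RNA gene that the files do not list shares 155 exon bases with ERRFI1.

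Per transcript length, the 5 ligands of the list summed to 113 ± 0.956 CPM per kb (SD, n = 3) in siNS Eth and to 57.6 ± 2.05 in siNS Dex. In siHP1γ cells the sum was 137 ± 8.08 with Eth and 84.5 ± 0.776 with Dex, and in siPRMT5 cells 110 ± 4.07 and 64.8 ± 3.70. The Dex libraries had the lower sums in each kind of cell. The ligand gene EPGN, described below, was not in these sums. It rose from 2.385 CPM per kb in siNS Eth to 5.545 CPM per kb in siNS Dex. HBEGF made up 85.2% ± 0.57 of the sum in siNS Eth and 66.9% ± 1.23 in siNS Dex. In siPRMT5 cells its share was 82.2% ± 0.682 with Eth and 50.1% ± 1.57 with Dex, where AREG made up 31.5% ± 1.39. The corresponding AREG shares with Dex were 14.6% ± 0.325 in siNS and 11.8% ± 0.27 in siHP1γ cells, and the 3 ranges did not overlap. These sums and shares assume reads along the whole transcript, and the kit type is not given. In CPM, without division by length, siPRMT5 Dex averaged 76.7 for HBEGF, 47.6 for NRG1, 31.1 for EREG, 25.2 for AREG and 5.09 for TGFA. There AREG lay below NRG1 and EREG. These are shares of mRNA of 5 genes, and protein was not measured.

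**Figure D4:**
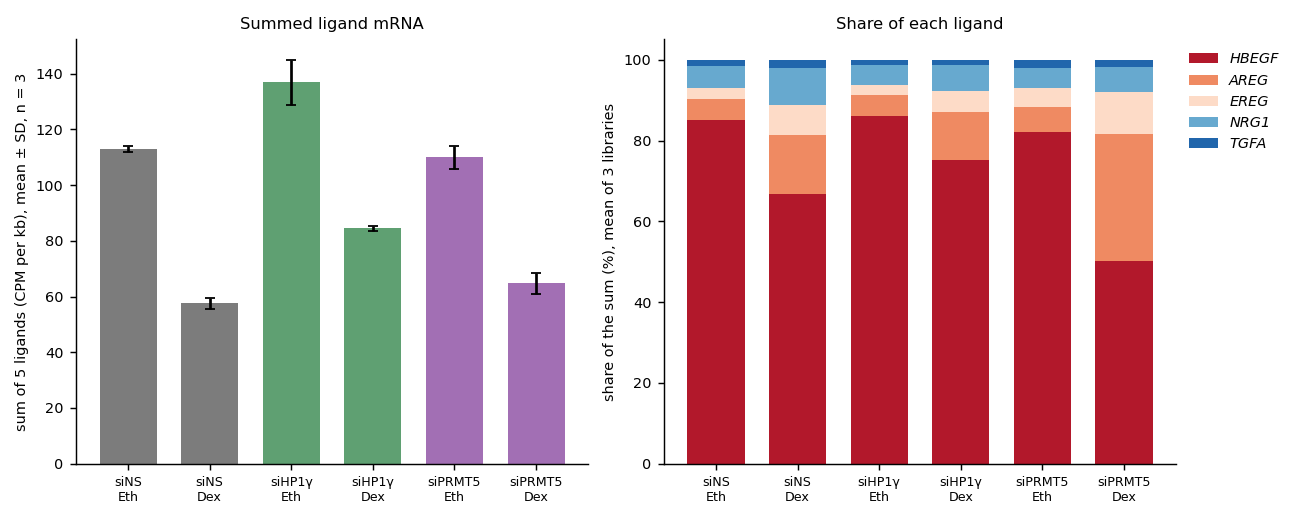
Left, sum of HBEGF, AREG, EREG, NRG1 and TGFA mRNA in CPM per kb (mean ± SD, n = 3); right, mean share of each ligand in the sum (%). The sum falls with Dex in all cells, from 113 to 57.6 in siNS cells, and the AREG share in siPRMT5 Dex is 31.5%.

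EPGN, which encodes the EGFR ligand epigen and lies on chromosome 4 from 74308470 to 74316789 beside EREG, was the other ligand gene of the family that passed the rule for naming. It rose with Dex in siNS cells from 6.40 ± 0.973 to 14.9 ± 3.11 CPM (SD, n = 3), with a log2 fold change of 1.21 (SE 0.188, adjusted p = 4.44e-05). It was lower after PRMT5 depletion, at 1.34 ± 0.262 CPM with Eth (-2.26, SE 0.294, adjusted p = 7.66e-07) and 4.81 ± 0.984 CPM with Dex (-1.61, SE 0.194, adjusted p = 2.25e-07), and it was also lower after HP1γ depletion with Dex, at 6.26 ± 1.82 CPM (-1.23, adjusted p = 1.65e-05). Dex also raised EPGN past the threshold in siPRMT5 cells, from 1.34 to 4.81 CPM. In siHP1γ cells the rise from 4.53 ± 0.939 to 6.26 ± 1.82 CPM was not called. The change of its Dex response was not called for either depletion. EPGN had 11 to 14 counts per library in siPRMT5 Eth.

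The other genes of the pathway were taken as 60 genes in 5 lists, of which 53 were tested. HRAS was listed at 0 in every library and IER3 at no more than 2 counts, and neither could be assessed. Dex changed 3 of the 53 in siNS cells (5.66%, 2 higher and 1 lower), 3 in siHP1γ cells (5.66%) and 5 in siPRMT5 cells (9.43%), beside 2.71%, 1.67% and 5.44% of all genes. MAP2K1, the ERK kinase MEK1, rose with Dex in the 3 kinds of cells, from 94.1 to 148 CPM in siNS cells (log2 fold change 0.66, adjusted p = 7.84e-08), by 0.80 in siHP1γ and by 0.83 in siPRMT5 cells. PHLDA1, which EGF induces through ERK, fell with Dex in the 3 kinds of cells, from 916 to 452 CPM in siNS cells (-1.02, adjusted p = 3.06e-11), by 0.87 on the log2 scale in siHP1γ and by 0.78 in siPRMT5 cells.

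PRMT5 depletion changed 29 of the 53 pathway genes without Dex (54.7%, 15 higher and 14 lower) and 38 with Dex (71.7%, 16 higher and 22 lower), against 42.1% and 42.4% of all genes. The median absolute log2 fold change of the 53 was 0.30 without and 0.37 with Dex, beside 0.28 over all genes tested in both. In the list of genes that EGF induces through ERK, 10 were tested. Without Dex 6 of them were lower and 1 higher (CCND1), and with Dex 7 lower and 1 higher, which is 70% and 80% of the list called. Feedback inhibitors were counted in a list of their own, given below, where more genes were higher than lower. The lists do not separate genes induced through ERK from feedback inhibitors that ERK may also induce, and ERK activity was not measured. ETV4, a transcription factor, fell to 45% without Dex (log2 fold change -1.15, adjusted p = 2.53e-10) and to 42.2% with Dex (-1.24, adjusted p = 4.02e-11). MYC fell to 52.9% (-0.92, adjusted p = 5.28e-11) and to 72% (-0.47, adjusted p = 3.28e-06). It was also called lower after HP1γ depletion, from 753 to 543 CPM without Dex and from 862 to 636 CPM with Dex (-0.44, adjusted p = 2.48e-05). Dex raised MYC in siPRMT5 cells (0.64, adjusted p = 6.71e-08), and this response was larger than in siNS cells by 0.45 (adjusted p = 0.00762).

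Of the 15 genes of receptor turnover and feedback inhibition, 7 were higher and 1 was lower after PRMT5 depletion without Dex, and 7 higher and 4 lower with Dex, which is 53.3% and 73.3% called beside 42.1% and 42.4% of all genes. SPRY1, a Sprouty inhibitor of RAS-ERK signaling, rose from 22.2 to 55.1 CPM without Dex (log2 fold change 1.32, adjusted p = 5.92e-11) and from 23.4 to 44.1 CPM with Dex (0.92, adjusted p = 2.96e-08). DUSP6, an ERK phosphatase, rose from 221 to 525 CPM (1.25, adjusted p = 3e-14) and from 288 to 477 CPM (0.73, adjusted p = 5.23e-10). ERRFI1, the inhibitor among the 9 genes, was lower without Dex, where SPRY1 and DUSP6 were higher. CBLB, a ubiquitin ligase of activated receptors, rose without Dex after depletion of HP1γ (0.72, adjusted p = 5.78e-05) and of PRMT5 (0.67, adjusted p = 7.81e-05). With Dex it was higher after HP1γ depletion (0.54, adjusted p = 0.000688) and was not called after PRMT5 depletion.

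In the adaptor and kinase list (18 of 19 tested), PRMT5 depletion raised 5 and lowered 3 genes without Dex and raised 6 and lowered 7 with Dex. The share called was 44.4% without Dex, near the 42.1% of all genes, and 72.2% with Dex, beside 42.4%. MAPK3 (ERK1) fell from 72.0 to 30.7 CPM without Dex (log2 fold change -1.23, adjusted p = 6.19e-10) and from 82.5 to 26.1 CPM with Dex (-1.66, adjusted p = 2.14e-12). After HP1γ depletion, the log2 fold changes of MAPK3, 0.25 without and -0.08 with Dex, did not pass (adjusted p = 0.0509 and 0.588).

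Among the 8 genes that cut and process the ligand precursors, PRMT5 depletion raised 2 and lowered 3 in both treatments, and HP1γ depletion raised 5 and lowered 3 without Dex and raised 3 and lowered 2 with Dex. With 8 genes, these are shares of 62.5% for PRMT5 depletion in both treatments, beside 42.1% of all genes without and 42.4% with Dex. For HP1γ depletion they are 100% without and 62.5% with Dex, beside 31.8% and 24% of all genes. ADAM17, the main sheddase of AREG, HBEGF and TGFA precursors, rose after each depletion with and without Dex, by 0.38 to 0.46 on the log2 scale. ADAM15, a metalloprotease, fell after PRMT5 depletion (log2 fold change -1.12 without and -1.57 with Dex, adjusted p = 6.44e-10 and 1.03e-12) and after HP1γ depletion (-0.58 and -0.79, adjusted p = 2.48e-05 and 3.48e-07). ADAM12 rose after HP1γ depletion from 4.81 to 11.3 CPM without Dex (1.22, adjusted p = 7.94e-06) and from 2.95 to 7.63 CPM with Dex (1.36, adjusted p = 1.14e-05). RHBDF1, which encodes the ADAM17 cofactor iRhom1, rose from 27.2 to 54.8 CPM after PRMT5 depletion without Dex (1.01, adjusted p = 1.5e-08). It was also called higher after PRMT5 depletion with Dex, from 30.2 to 44.8 CPM, and after HP1γ depletion without Dex. In all 5 lists, HP1γ depletion changed 29 of 53 genes without Dex (54.7%, background 31.8%) and 22 with Dex (41.5%, background 24%). The median absolute log2 fold change of the 53 was 0.26 without and 0.21 with Dex, beside 0.228 and 0.193 over all genes tested. The 22 were 12 higher and 10 lower, and with library size alone in place of TMM 17 were higher and 9 lower.

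**Figure D5:**
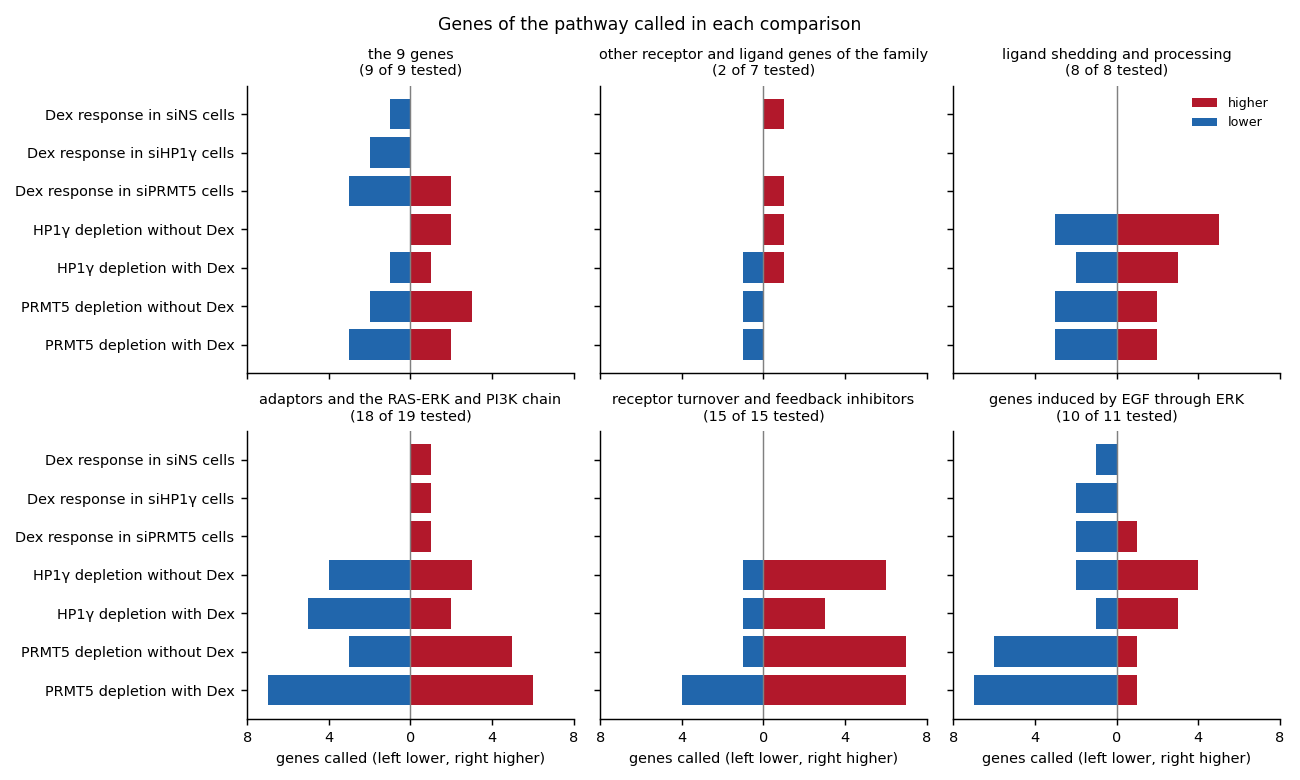
Number of genes called lower (bars to the left) and higher (bars to the right) in each of 7 comparisons, for the 9 genes and the 5 pathway lists. After PRMT5 depletion without Dex, 6 genes listed as induced by EGF through ERK were lower and 1 higher, and 7 feedback inhibitors were higher and 1 lower. With Dex these were 7 lower and 1 higher, and 7 higher and 4 lower. Of all genes tested, 42.1% were called without and 42.4% with Dex. Whether the feedback inhibitors are also induced through ERK was not part of the listing.

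The genes whose log2 CPM followed each of the 9 most closely over the 18 libraries were named as a description, among 11410 other genes averaging 5 CPM or more (11411 for ERBB3). The libraries share conditions, so the 18 points are not independent. For HBEGF these were AMIGO2 (Pearson's r 0.97, Spearman's rho 0.907) and JUN (0.965 and 0.886). For NRG1 they were EMP1 (0.972 and 0.897) and IL11 (0.967 and 0.889), and for EGFR SPAG9 (0.971 and 0.942) and ADIPOR2 (0.966 and 0.971). AREG was followed most closely by GCLC (0.963 and 0.93) and PXYLP1 (0.946 and 0.899), EREG by SEC22C (0.946 and 0.948) and NFKBIZ (0.925 and 0.899), and ERRFI1 by AZI2 (0.954 and 0.849) and HS3ST3B1 (0.949 and 0.874). TGFA was nearest to IRF2BPL (0.916 and 0.893) and ARHGAP26 (0.901 and 0.843), and ERBB3 to FASTKD5 (0.958 and 0.959) and MAMLD1 (0.926 and 0.886). ERBB2 had the weakest likeness, with ASXL1 (0.815 and 0.756) and ARHGEF17 (0.804 and 0.684). Among the 9 genes, the highest r was that of HBEGF and NRG1 (0.865) and the lowest that of AREG and NRG1 (-0.862).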

How the data were processed

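RNA of 18 libraries of MDA-MB-231 cells in 6 conditions was analyzed, with the condition and replicate taken from the sample labels. The authors prepared libraries with Lexogen kits, mapped reads on hg38 with Bowtie2 (version 2.4.2), counted them with htseq-count (version 0.9.1) and deposited raw counts per gene symbol for each library. Their own comparisons (log2 fold changes and adjusted p-values made with DESeq2, version 2.11.40.7) were not used. Bowtie2 does not split reads across introns. The kit type, strand setting and annotation of the counting are not given in the sources used here, so counts of overlapping genes are uncertain.

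A filter on low counts (filterByExpr of edgeR, 6 conditions) left 15298 of 60642 symbols, and libraries were scaled by TMM. All 18 libraries entered 1 quasi-likelihood fit (edgeR 4.0.16, R 4.3.3, 12 residual degrees of freedom), and p-values were adjusted by Benjamini-Hochberg over all genes tested. The SE was taken from the log2 fold change and its F statistic. Dex responses were called at an adjusted p under 0.01 with a 1.5-fold change or more, depletions and interactions at an adjusted p under 0.05. p-values measure the spread between the replicates. The authors call these biological replicates, and the labels do not describe them as separate cultures. Totals of 8682992 to 12472381 counts per library set the precision, and low genes such as ERBB3 are measured with more error. Gene positions, overlaps and MANE Select lengths are from GENCODE 44 on hg38, and promoters are from RefSeq on GRCh38.p14.

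The 9 genes, the pathway lists and the tests were chosen with earlier results of these data known. Named genes are the 9 genes, the siRNA targets and cell markers, up to 3 genes per pathway list with the largest absolute log2 fold change (outside the interactions, among calls with a mean of at least 5 CPM and the same direction in 3 same-numbered sets), genes that overlap the 9, and the 2 genes most correlated with each. A gene that this rule names is not reported here. ADAM17, CCND1, HRAS and IER3 were named, and the motifs and promoters chosen, after values were seen. The alternatives were DESeq2 1.42.0, DESeq2's size factors or library size alone in edgeR, no filter or at least 10 counts in every library, the libraries of each comparison alone, a fold change of at least 2, the replicate number as a block, and each library left out in turn.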

Additional observations from a re-analysis of the deposited data

Results flagged for a closer look

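For 3 results the Dex response differed between depleted and siNS cells by the interaction term of edgeR's quasi-likelihood test. The Dex response of AREG was 1.038 higher on the log2 scale in siPRMT5 than in siNS cells (adjusted p = 0.00144). Its call was kept under each other setting and in each fit that left out 1 library, and the highest adjusted p among all of these was 0.011. The Dex response of ERRFI1 was 0.68 higher in siPRMT5 than in siNS cells (adjusted p = 0.000144), and its call was also kept in each of these fits, with values from 0.63 to 0.73.

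The Dex response of HBEGF was 0.435 higher, that is a weaker decrease, in siHP1γ than in siNS cells (adjusted p = 0.0398). It kept its direction under each alternative run, with values from 0.39 to 0.50, but its call was lost without siNS Eth replicate 1 (adjusted p = 0.113) or 3 (0.096), without siNS Dex replicate 1 (0.0717), 2 (0.0643) or 3 (0.13), without siHP1γ Eth replicate 2 (0.0877) or 3 (0.0935), and without siHP1γ Dex replicate 2 (0.061) or 3 (0.0532).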

How the results depend on the processing

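Alternatives and fits that left out 1 library were compared with the values above. Of 132 counts under other settings, 123 stayed within 1.5 times the count reported. With library size alone, 4 of the 9 genes were called for HP1γ depletion with Dex and 4 without. With a fold change of at least 2, 0 of the 9 genes and 0 pathway genes were called for Dex in siHP1γ cells by edgeR, and 3 and 1 in siPRMT5 cells. With DESeq2, 2 of the 9 genes were called for the interaction with HP1γ depletion and 5 pathway genes for that with PRMT5 depletion. With no filter, 1 pathway gene was called for the interaction with HP1γ depletion. With 1 library left out, the calls among the 9 genes ranged from 1 to 2 for Dex in siNS cells, from 1 to 2 for Dex in siHP1γ cells, from 1 to 3 for HP1γ depletion without Dex and from 0 to 1 for the interaction with HP1γ depletion. The pathway calls ranged from 3 to 6 for Dex in siNS cells, from 3 to 5 for Dex in siHP1γ cells, from 0 to 1 for the interaction with HP1γ depletion and from 2 to 9 for that with PRMT5 depletion (9 without siNS Eth replicate 2 and 8 without siHP1γ Dex replicate 1). The cause of these changes was not tested. The interaction with HP1γ depletion called 61 of all genes, and 20 without siNS Eth replicate 1 to 186 without siNS Eth replicate 2, 298 with DESeq2 and 374 with no filter. That with PRMT5 depletion called 582, and 319 without siNS Eth replicate 1 to 897 without siHP1γ Dex replicate 1.

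For single genes among the 9, no called log2 fold change turned its sign: of 567 values under other settings 561 kept their side of the threshold, and of 1458 with 1 library left out 1437 did. AREG with HP1γ depletion without Dex passed without siNS Eth replicate 3 (adjusted p = 0.0299). The labels do not say whether same-numbered replicates belong together, and weak correlations between them cannot exclude a shared batch. Of 45 same-numbered pairs, 6 had a correlation of their deviations over 0.1 (median 0.007), and 10 of 18 libraries correlated best with their own number. With the replicate number as a block, the 9 genes had 5 calls for PRMT5 depletion with Dex and 2 for its interaction with Dex, as without it, and over all genes the interaction with HP1γ depletion had 94 calls in place of 61.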
